A study of Mus musculus with 4 samples.

Results

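IGF1 is a secreted growth factor that acts through a receptor tyrosine kinase, IGF1R, and the insulin-like growth factor binding proteins (IGFBPs) hold it, carry it and limit its access to that receptor. Proteases such as PAPP-A release IGF1 by cutting some binding proteins. In the testis, IGF1 signalling is known for its part in Leydig cell maturation and steroid synthesis and in setting Sertoli cell number. The genes described here are Igf1 and the binding protein genes Igfbp2, Igfbp3, Igfbp4, Igfbp5, Igfbp6 and Igfbp7, taken by gene symbol, and all 7 were found among the 32285 genes of the count matrix. The question asked of each was which testis cell supplied its RNA.

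Single cells of mouse testis were profiled with a droplet 3' kit in 4 groups of 1 library each, Znhit1_KO and CTRL testes at postnatal days 16 and 35. ZNHIT1 belongs to the complex that places the histone variant H2A.Z in chromatin, and the series describes its depletion in germ cells. The driver of the deletion, the strain and the number of mice per library were not stated in the labels. Only the Znhit1_KO library of day 35 was analysed here, without the counts of the remaining 3. No genotype or age is therefore compared, and there was no test.

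The library listed 15306 barcodes and 72459160 UMIs (molecular identifiers, 1 for each RNA molecule captured). After filters, 7856 cells with a median of 4607 UMIs were used, of which 2688 were somatic-like, 4389 germ-cell-like and 779 unnamed. Names came from marker genes, with the 7 genes and the wider IGF lists left out of the clustering, and no cluster took a spermatid name. A lymphocyte-like class of 15 cells was too small for the order of levels. Any pair of the 4 libraries shared between 45 and 81 barcode sequences. Znhit1 itself had 15.8 CPM (UMIs per 1000000 UMIs) in somatic-like cells and 2.49 CPM in germ-cell-like cells. Levels are the pooled UMIs of a class in CPM, with 95% intervals that cover counting error only, not the spread between cells or animals. With summed counts, more positive cells and more RNA per cell cannot be told apart.

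The 7 genes lie on 5 chromosomes of mm10. Igf1 spans chr10:87858265-87937042 on the plus strand and overlaps the antisense gene Igf1os, which had 20 UMIs in the cells used. Igfbp2 (chr1:72824503-72852474, plus strand) and Igfbp5 (chr1:72857932-72874884, minus strand) are neighbours, with 5457 bases between their ends. Igfbp3 (chr11:7206086-7213923, minus strand) and Igfbp4 (chr11:99041244-99054392, plus strand) share a chromosome but are far apart. Igfbp6 lies at chr15:102144362-102149511 on the plus strand. Igfbp7 (chr5:77349240-77408041, minus strand) overlaps Polr2b, which had 6462 UMIs, and Gm34648, which had 2 UMIs, both on the other strand. No source names the strand setting of the counting, so reads of these 2 genes and of their overlapping partners cannot be told apart.

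Promoter windows of 4 of the genes are printed because they stand for the sources described below. The windows belong to the stromal and macrophage gene Igf1, the Leydig and germ-cell gene Igfbp2, broadly interstitial Igfbp4 and Igfbp7, highest in endothelial-like cells. Each runs from 250 bases before to 50 bases after the RefSeq start site (GRCm38.p6) and reads 5′ to 3′ on the gene's own strand, and capitals mark a TATA box (TATAAA) or a GC box (GGGCGG) on either strand. The windows are chr10:87860861-87861160 (plus), chr1:72824230-72824529 (plus), chr11:99040994-99041293 (plus) and chr5:77407996-77408295 (minus).
Igf1: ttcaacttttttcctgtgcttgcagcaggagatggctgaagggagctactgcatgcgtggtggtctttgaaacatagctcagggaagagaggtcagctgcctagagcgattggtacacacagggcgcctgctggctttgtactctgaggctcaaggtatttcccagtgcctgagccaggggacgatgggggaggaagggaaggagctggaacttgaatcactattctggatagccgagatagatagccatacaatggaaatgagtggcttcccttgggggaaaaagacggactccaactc
Igfbp2: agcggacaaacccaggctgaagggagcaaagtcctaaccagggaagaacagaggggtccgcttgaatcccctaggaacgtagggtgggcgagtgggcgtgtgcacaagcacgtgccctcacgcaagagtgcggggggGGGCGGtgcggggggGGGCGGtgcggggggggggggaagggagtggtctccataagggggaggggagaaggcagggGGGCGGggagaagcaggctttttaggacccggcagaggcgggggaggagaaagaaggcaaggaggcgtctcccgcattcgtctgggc
Igfbp4: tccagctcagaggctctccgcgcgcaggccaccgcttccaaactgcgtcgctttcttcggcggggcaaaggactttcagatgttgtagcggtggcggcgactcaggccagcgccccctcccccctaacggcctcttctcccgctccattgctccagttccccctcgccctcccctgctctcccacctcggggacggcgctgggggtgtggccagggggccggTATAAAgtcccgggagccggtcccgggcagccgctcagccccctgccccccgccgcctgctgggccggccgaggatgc
Igfbp7: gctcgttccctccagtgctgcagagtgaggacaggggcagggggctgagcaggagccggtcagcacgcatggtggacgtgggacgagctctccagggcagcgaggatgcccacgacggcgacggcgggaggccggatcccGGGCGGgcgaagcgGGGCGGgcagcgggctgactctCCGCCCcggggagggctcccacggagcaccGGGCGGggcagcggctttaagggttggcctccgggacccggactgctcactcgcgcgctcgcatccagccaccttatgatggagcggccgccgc

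The windows differed in base content. That of Igfbp7 held 33 CpG dinucleotides and 4 GC boxes, that of Igfbp4 27 CpG and a TATA box that begins 28 bases before the start site, that of Igfbp2 18 CpG and 3 GC boxes, and that of Igf1 6 CpG and neither motif. Among 32851 RefSeq promoter windows of the same length, 35.7% held a GC box, 13.6% a TATA box, and the median CpG count was 7. A binding motif of the steroidogenic factor NR5A1 (AAGGTCA, in 4.72% of windows) and a site of the macrophage factor PU.1 (GAGGAAGT, in 3.20%) matched none of the 8 windows of the 7 genes. A match or its absence describes only the letters of these windows.

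The growth factor gene came mostly from stroma and macrophages. Igf1 stood at 631 CPM (95% interval 582 to 683) in interstitial stroma-like cells, 477 CPM (441 to 515) in macrophage-like cells and 121 CPM (107 to 137) in peritubular myoid-like cells, the contractile cells around the tubules. Of its 1718 UMIs in the cells used, 38.5% lay in macrophage-like, 35.6% in stroma-like and 15.3% in myoid-like cells. Although it took no part in the clustering, Igf1 was among the 10 leading genes of the stroma-like cluster, beside Dcn, Gsn and Clec3b. Stroma-like over macrophage-like cells, the ratio was 1.32 (1.18 to 1.48), and it was 2.04 with a finer clustering that left 233 of the 308 stroma-like cells under that name, at 975 CPM. Macrophage-like cells stood 3.93-fold above myoid-like cells (3.4 to 4.55).

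All other classes held little Igf1. Leydig-like cells, the steroid-making cells of the interstitium, had 8.79 CPM, Sertoli-like cells, which nurse the germ cells, had 7.91 CPM and the germ-cell-like classes had 1.78 to 2.50 CPM. The 74 endothelial-like cells had 0 UMIs, which at 3 counts allows up to 9.28 CPM. Neighbours in the order from Leydig-like cells downward had intervals of their ratios that included 1.

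The macrophage-like cells fell into a pair of clusters that differed in Igf1. Cluster 10 (321 cells), led by F13a1, Folr2 and Mrc1, genes of resident macrophages, had 569 CPM (526 to 614), with a UMI in 76.3% of cells. Cluster 16 (125 cells), led by the antigen-presentation genes Cd74, H2-Eb1, H2-Aa and H2-Ab1, had 33.5 CPM (14.5 to 66.0) from 8 UMIs, with a UMI in 6.40% of cells. The macrophage-like level of 477 CPM given above pools both clusters. At the same clustering, the interval of cluster 10 alone overlapped that of stroma-like cells (582 to 683). The ratio of cluster 10 over cluster 16 was 17.0 (8.57 to 39.5), where 18.8% of 7589 genes were at least 2-fold higher in cluster 10 and 7.02% at least 2-fold lower. Igfbp4 followed it at 235 CPM in cluster 10 and 50.3 CPM in cluster 16, a ratio of 4.68 (2.63 to 9.16). The summed macrophage markers themselves were 27530 CPM in cluster 10 and 14190 CPM in cluster 16. Summed markers of the other types were lower in cluster 10 than in cluster 16 for Leydig cells (600.4 CPM in cluster 10, 938 CPM in cluster 16) and peritubular myoid cells (99.2 CPM in cluster 10, 415 CPM in cluster 16). Stroma markers were at 91.4 CPM in cluster 10 and 83.8 CPM in cluster 16. Median depth was 3494 UMIs in cluster 10 and 1879 UMIs in cluster 16, and the part of depth and of the marker sums in the difference was not tested.

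**Figure D1:**
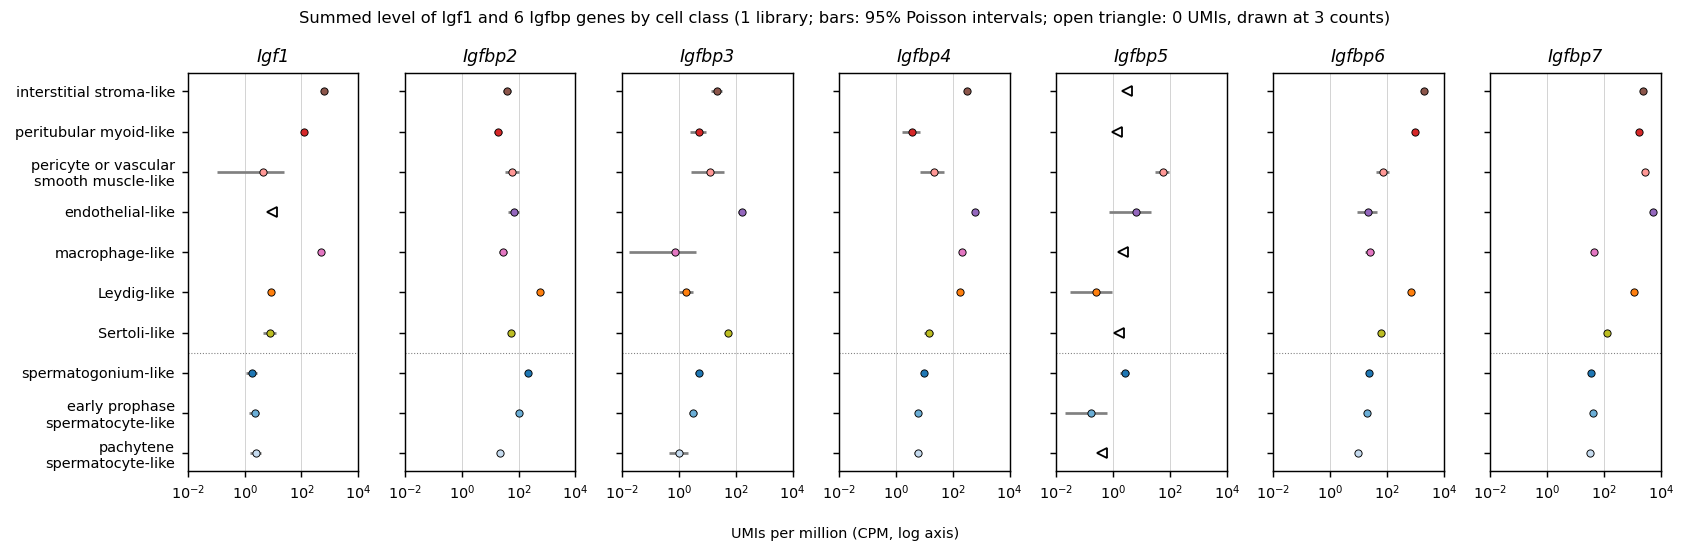
Each panel shows 1 gene, with cell classes down the page, somatic-like classes above the dotted line and germ-cell-like classes under it. The x axis is CPM on a log axis, bars are 95% Poisson intervals and open triangles stand for 0 UMIs, drawn at 3 counts. Igf1 is highest in stroma-like and macrophage-like cells, Igfbp2 in Leydig-like and spermatogonium-like cells, Igfbp3, Igfbp4 and Igfbp7 in endothelial-like cells, Igfbp5 in the 68 pericyte-like cells and Igfbp6 in stroma-like cells.

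The 6 binding protein genes had 4 different highest classes. Igfbp3, Igfbp4 and Igfbp7 were highest in endothelial-like cells, Igfbp6 in stroma-like cells, Igfbp2 in Leydig-like cells and Igfbp5 in cells like pericytes or vascular smooth muscle. A highest class at least 2-fold above the next was the call used, for genes with at least 20 UMIs in that class. It was met by 3 of the 6 genes that could be called, Igfbp2, Igfbp3 and Igfbp6, where it was met by 33.3% of 14637 genes. Igf1 (1.32-fold), Igfbp4 (1.90-fold) and Igfbp7 (1.97-fold) fell short of it, and Igfbp5 had too few UMIs. Each gene's highest class was the same in all 8 alternative settings, but the number past the 2-fold line ran from 2 to 6.

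IGFBP7 is a binding protein of low affinity for IGF1 that is known as a vascular matrix protein. Its gene was highest in vessel-wall cells but was also high in stroma-like, myoid-like and Leydig-like cells. Igfbp7 reached 5335 CPM (5086 to 5593) in endothelial-like cells, 2705 CPM (2498 to 2925) in pericyte-like cells, 2396 CPM in stroma-like, 1689 CPM in myoid-like and 1151 CPM in Leydig-like cells. Each of these 5 classes stood apart from the next in the order by an interval above 1. Below them came a gap, with 122 CPM in Sertoli-like cells, 44.7 CPM in macrophage-like cells and 31.8 to 41.5 CPM in the germ-cell-like classes. All 74 endothelial-like cells held an Igfbp7 UMI, also after each cell was thinned to 1000 UMIs, against 97.1% of pericyte-like and 66.7% of Leydig-like cells after thinning. In the germ-cell-like classes the share was 4.22 to 5.01% after thinning.

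Igfbp4, whose product is a chief substrate of PAPP-A, was also highest in endothelial-like cells, at 594 CPM (513 to 684). Stroma-like cells had 312 CPM (278 to 350), macrophage-like cells 203 CPM (180 to 228) and Leydig-like cells 176 CPM (167 to 185). Between macrophage-like and Leydig-like cells the ratio was 1.16 (1.02 to 1.32), the closest step among these 4 classes. Myoid-like cells had 3.71 CPM from 8 UMIs, so Igfbp4 was low in the class where Igfbp6 and Igfbp7 were high.

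Igfbp3, which codes for the main carrier of IGF1 in blood, had 338 UMIs in the cells used, of 780 over all barcodes. Endothelial-like cells had 164 CPM (123 to 214) from 53 UMIs, held by 19 of 74 cells, and 1 cell held 12 of them. Sertoli-like cells had 51.7 CPM (42.0 to 63.0) from 98 UMIs, and stroma-like cells 21.6 CPM (13.4 to 33.1). Endothelial-like over Sertoli-like cells the ratio was 3.17 (2.23 to 4.47), and Sertoli-like over stroma-like cells 2.39 (1.48 to 4.03). Leydig-like cells, which were the largest single somatic class, had 1.86 CPM.

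Sertoli-like cells were not uniform in Igfbp3. Cluster 14 (170 cells), with Fshr among its leading genes, had 21.8 CPM (13.96 to 32.4), and cluster 18 (111 cells), with Sox9 and Wnt4 among its leading genes, had 93.1 CPM (73.1 to 117). The ratio of cluster 14 over cluster 18 was 0.234 (0.141 to 0.375), where 8.71% of 9628 genes were lower in cluster 14 and 19.8% higher, by 2-fold or more. Pappa, which codes for PAPP-A, ran the same way at 70.8 CPM in cluster 14 and 213 CPM in cluster 18. Igf1r ran the other way at 332 CPM in cluster 14 and 120 CPM in cluster 18, a ratio of 2.78 (2.21 to 3.52). The summed Sertoli markers were 15230 CPM in cluster 14 and 15790 CPM in cluster 18, Leydig markers 1941 CPM in cluster 14 and 2365 CPM in cluster 18, and endothelial markers 17.3 CPM in cluster 14 and 15.1 CPM in cluster 18. Single Sertoli markers differed in both directions. Cst9 had 1468 CPM in cluster 14 and 527 CPM in cluster 18. Sox9 had 277 CPM in cluster 14 and 578 CPM in cluster 18, and Gstm6 471 CPM in cluster 14 and 1121 CPM in cluster 18. Barcodes with over 10% mitochondrial UMIs bear on this class: with the limit at 20%, Sertoli-like cells numbered 714 in place of 281, with Igfbp3 at 48.0 CPM.

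**Figure D2:**
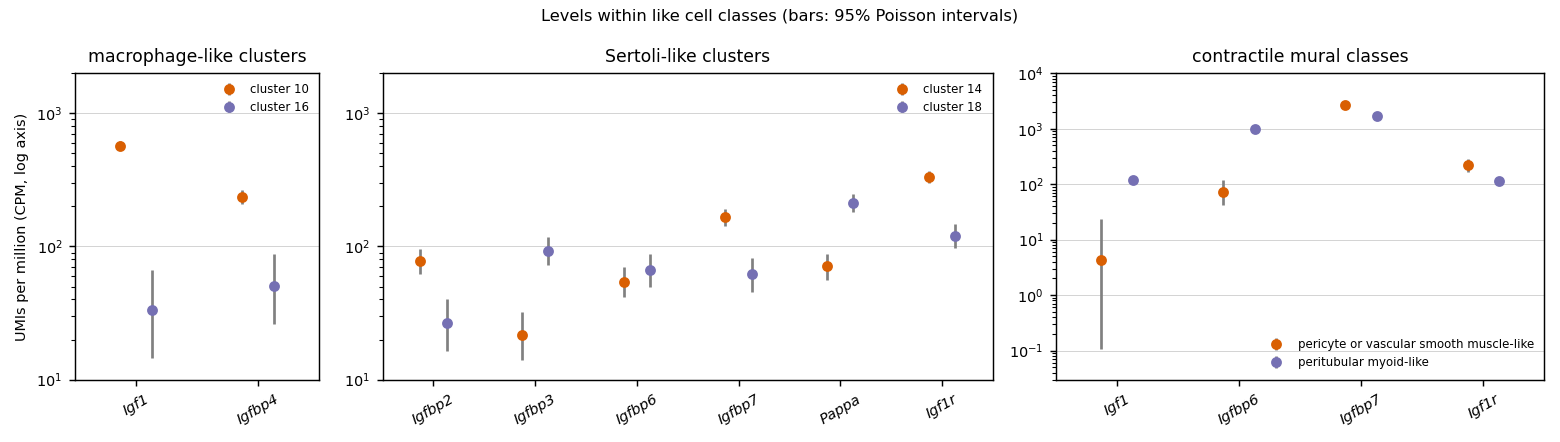
Points are CPM on log axes with 95% Poisson intervals, for 2 macrophage-like clusters, 2 Sertoli-like clusters and 2 contractile classes. Igf1 is 569 CPM in macrophage-like cluster 10 and 33.5 CPM in cluster 16, Igfbp3 is 21.8 CPM in Sertoli-like cluster 14 and 93.1 CPM in cluster 18, and Igfbp6 is 73.1 CPM in pericyte-like and 972 CPM in myoid-like cells.

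IGFBP6 prefers IGF2 over IGF1, and its gene was highest in stroma-like cells, followed by myoid-like and Leydig-like cells. Igfbp6 stood at 2027 CPM (1938 to 2119) in stroma-like cells, 972 CPM (931 to 1015) in myoid-like cells and 727 CPM (708 to 746) in Leydig-like cells. The ratio of stroma-like over myoid-like cells was 2.09 (1.96 to 2.22) and that of myoid-like over Leydig-like cells 1.34 (1.27 to 1.41). At Leiden resolution 2, Leydig-like clusters had 573.5 CPM (602 cells) and 1193 CPM (358 cells) of Igfbp6. Myoid-like clusters had 1020 and 759 CPM, so the ranges of these classes overlapped at that setting. Pericyte-like cells had 73.1 CPM from 17 UMIs, 8 of them in 1 cell, and endothelial-like cells 21.7 CPM.

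The 2 contractile classes, pericytes or vascular smooth muscle on vessels and myoid cells on tubules, differed in their binding proteins. Igfbp6 was 13.3-fold lower in pericyte-like than in myoid-like cells (ratio 0.0752, 0.0437 to 0.121), and Igf1 had 4.30 CPM from 1 UMI in pericyte-like cells and 121 CPM in myoid-like cells. Igfbp7 was 1.602-fold higher in pericyte-like cells (1.47 to 1.74). Of 9807 genes, 11.7% were at least 2-fold higher in pericyte-like cells and 13.3% at least 2-fold lower. Igfbp5, which codes for a matrix-bound binding protein, had 13 UMIs in 8 of 68 pericyte-like cells (55.9 CPM, 29.8 to 95.6) and 0 UMIs in 603 myoid-like cells. With 3 counts set in place of that 0, the pericyte-like level was 40.2-fold higher.

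Leydig-like cells supplied the most RNA of 4 binding proteins without being the highest class for 3 of them. They were 11.4% of the cells used and had 8076183 of the 48553315 UMIs in those cells. Of single genes, they held 50.2% of the UMIs of Igfbp2, 55.4% of Igfbp4, 54.1% of Igfbp6 and 47.8% of Igfbp7. With a median of 8954 UMIs they were also the deepest somatic-like class. Of the 893 Leydig-like cells, 99.4% held an Igfbp7 UMI, 95.4% an Igfbp6 UMI, 87.2% an Igfbp2 UMI and 63.2% an Igfbp4 UMI. Across these cells, the correlation between any 2 of the 4 genes lay between -0.045 and 0.099 (Pearson r of log values, 893 cells of 1 library, sparse counts).

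**Figure D3:**
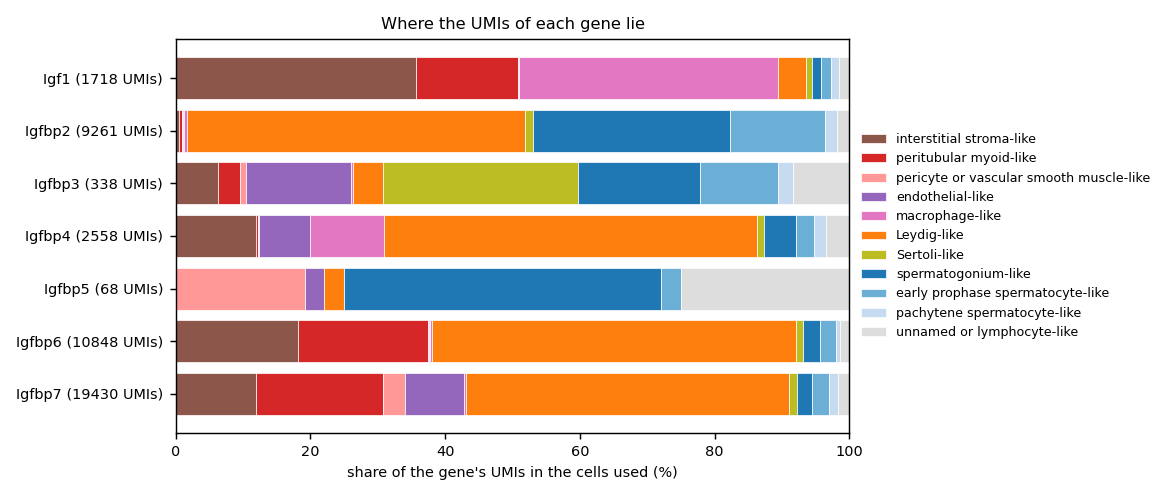
Each bar is 1 gene and its segments are the shares (%) of that gene's UMIs in the cells used that lie in each class. Leydig-like cells take 50.2% of Igfbp2, 55.4% of Igfbp4, 54.1% of Igfbp6 and 47.8% of Igfbp7, while Igf1 is divided between stroma-like (35.6%), macrophage-like (38.5%) and myoid-like cells (15.3%).

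Igfbp2 RNA was found in Leydig-like cells and in the early germ-cell-like classes, which held 45.1% of its UMIs together with pachytene-like cells. Leydig-like cells had 576 CPM (560 to 593), spermatogonium-like cells 219 CPM (211 to 227), early meiotic prophase spermatocyte-like cells 107 CPM (102 to 113) and pachytene spermatocyte-like cells 22.1 CPM (18.9 to 25.7). Spermatogonia are the dividing germ cells that precede meiosis, and pachytene is the stage of meiotic prophase at which paired chromosomes are fully joined. The ratio of spermatogonium-like over early prophase-like cells was 2.04 (1.91 to 2.18) and that over pachytene-like cells was 9.92 (8.48 to 11.7). At least 2-fold higher levels in spermatogonium-like cells were seen for 28.9% of 15961 genes against early prophase-like cells and for 40.7% of 15953 genes against pachytene-like cells, so a change of this direction was common. Endothelial-like cells had 68.0 CPM of Igfbp2, but 1 cell held 10 of the 22 UMIs.

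Ordered by their marker scores, the 9 germ-cell-like clusters gave a graded series of Igfbp2. The 3 spermatogonium-like clusters had 203 CPM (cluster 11, led by Gfra1, a gene of undifferentiated spermatogonia), 229 CPM (cluster 2) and 221 CPM (cluster 7). The 4 early prophase-like clusters followed with 164, 118, 85.5 and 53.2 CPM, and the 2 pachytene-like clusters with 24.9 and 19.1 CPM. The level was lower at each later cluster than in the spermatogonium-like ones. A finer clustering, at Leiden resolution 2, gave 5 spermatogonium-like clusters, with Igfbp2 between 159.9 and 264 CPM. Its early prophase-like clusters lay between 52.8 and 183.7 CPM, so the ranges of these stages overlapped at that setting.

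Igf1r, the receptor gene, was also lower in the later clusters but not in step. It had 385 CPM (367 to 405) in cluster 11, 153 CPM in cluster 2 and 111 CPM in cluster 7. The early prophase-like clusters had 132, 30.3, 23.5 and 15.8 CPM and the pachytene-like clusters 16.6 and 18.3 CPM. Spermatogonium-like over pachytene-like cells the ratio was 12.8 (10.7 to 15.3).

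**Figure D4:**
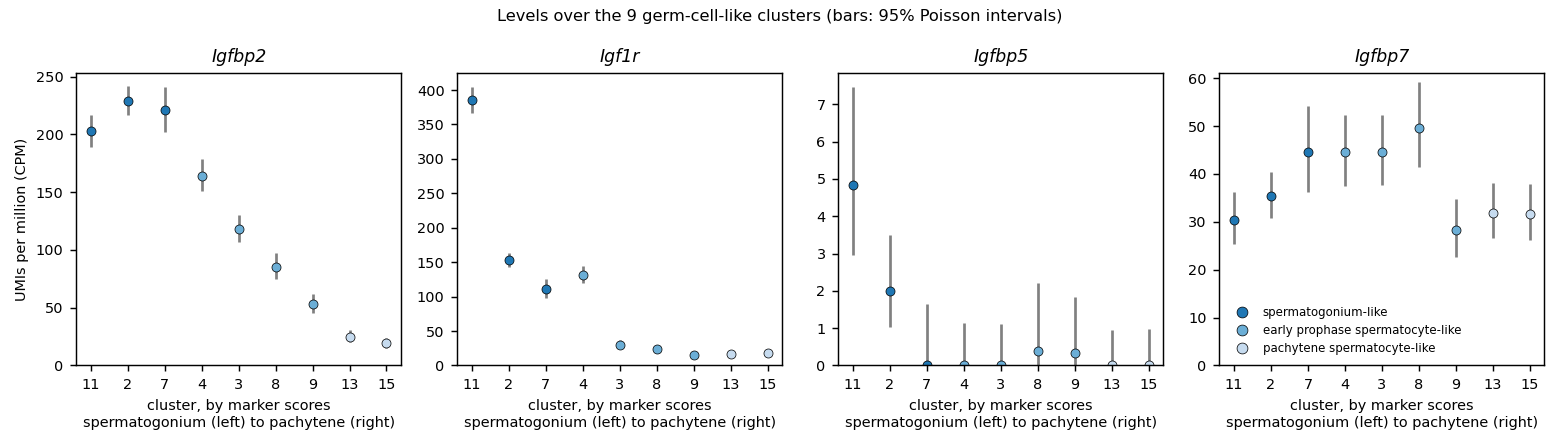
Points are CPM with 95% Poisson intervals for the 9 germ-cell-like clusters, ordered by marker scores from spermatogonium-like to pachytene-like. Igfbp2 lies between 203 and 229 CPM in the spermatogonium-like clusters and at 19.1 CPM in the last cluster, Igf1r is highest at 385 CPM in the first cluster, Igfbp5 has UMIs mainly in the first 2 clusters, and Igfbp7 stays between 28.2 and 49.7 CPM.

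Igfbp5 had 68 UMIs in the cells used, and 47.1% of them lay in spermatogonium-like cells, in which it reached 2.58 CPM. Of these 32 UMIs, cluster 11 held 20, cluster 2 held 12 and cluster 7 held 0. Spermatogonium-like over early prophase-like cells the ratio was 15.7 (3.99 to 135) against 2 UMIs. Over pachytene-like cells, which had 0, the level was 6.56-fold higher with 3 counts set in place of that 0. Stroma-like, macrophage-like and Sertoli-like cells also had 0 UMIs. The spermatogonium-like level was 4.62% of the pericyte-like level, where the 6 pericyte markers ran from 0 to 0.805%.

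Free RNA was not subtracted, and markers of somatic cells had UMIs in germ-cell-like cells too. Summed over 9 Leydig markers, spermatogonium-like cells had 1.77% of the Leydig-like level, early prophase-like cells 2.40% and pachytene-like cells 1.20%. Igfbp2 stood at 38.0%, 18.7% and 3.83% of its Leydig-like level in the same 3 classes. Igfbp6 stood at 3.09%, 2.82% and 1.34%, Igfbp7 at 3.07%, 3.61% and 2.76%, and Igfbp4 at 5.47%, 3.38% and 3.37%. All 4 genes thus lay above the Leydig marker sum in each of the 3 classes, Igfbp2 by the widest margin. Single Leydig markers ran from 1.12 to 2.36% in spermatogonium-like, 1.6 to 3.22% in early prophase-like and 0.917 to 1.47% in pachytene-like cells. Igfbp6 lay within the range of single markers in early prophase-like and pachytene-like cells. For Igfbp4, Igfbp6 and Igfbp7, Leydig-like cells were not the highest class. Over 62 somatic markers, the level in germ-cell-like cells was a median of 3.78% of that in somatic-like cells. Single markers ran from 1.61 to 101.5%, and the 13 Sertoli markers had a median of 26.1% and ran up to 53.5%. On that scale Igf1 was at 1.97%, Igfbp6 at 2.79%, Igfbp7 at 3.1% and Igfbp4 at 4.96%, while Igfbp3 was at 25.1% and Igfbp2 at 39.9%. Igf1, Igfbp6 and Igfbp7 lay below the median of the 62 markers on that scale, and the part of free RNA in their germ-cell levels was not tested. Igfbp3 in spermatogonium-like cells was 9.53% of its Sertoli-like level, where the summed Sertoli markers were at 9.67%. Among the spermatogonium-like clusters, Igfbp3 had 6.76 CPM in cluster 11, 4.33 CPM in cluster 2 and 3.12 CPM in cluster 7, while the Sertoli markers summed to 1137 CPM in cluster 11, 1454 CPM in cluster 2 and 2267 CPM in cluster 7.

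Sertoli-like cells held Leydig markers as well. These summed to 11.1% of the Leydig-like level, and Igfbp2, Igfbp4, Igfbp6 and Igfbp7 lay at 9.70%, 8.11%, 8.20% and 10.6% of theirs. None of the 4 exceeded the marker sum over the whole class, but the 2 Sertoli-like clusters differed. Igfbp7 had 166 CPM in cluster 14 and 61.7 CPM in cluster 18, Igfbp2 had 77.2 CPM in cluster 14 and 26.4 CPM in cluster 18, and Igfbp4 had 21.8 CPM in cluster 14 and 3.78 CPM in cluster 18. Igfbp6 had 54.5 CPM in cluster 14 and 66.7 CPM in cluster 18. As given above, the Leydig markers were lower in cluster 14 than in cluster 18. Summed markers of stroma (179.8 and 112 CPM), myoid cells (308.7 and 163.6 CPM) and macrophages (217.9 and 142.2 CPM) were higher in cluster 14. So were pericyte markers (31.8 and 1.26 CPM). In cluster 14, 1 cell held 20 of 183 Igfbp7 UMIs and 1 cell held 10 of 85 Igfbp2 UMIs. Median depth was 3659 UMIs in cluster 14 and 6387 UMIs in cluster 18. The part of these sums and of depth was not tested. In stroma-like cells the Leydig markers reached 21.8%, and Igfbp2 lay at 6.80%, while Igfbp4, Igfbp6 and Igfbp7 lay at 178%, 279% and 208%. In myoid-like cells Igfbp2 (3.30%) and Igfbp4 (2.11%) were below the marker sum of 4.99%. Barcodes with under 1000 UMIs, left out of the cells used, held 182 CPM of Igfbp6 and 288 CPM of Igfbp7.

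**Figure D5:**
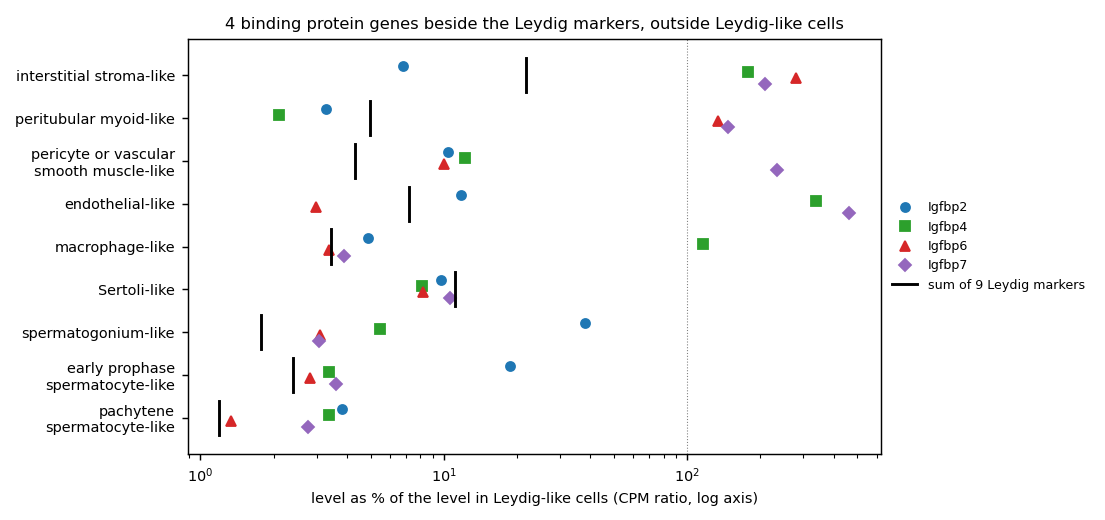
The x axis gives the level of 4 binding protein genes as a percent of their level in Leydig-like cells, on a log axis, for each other class. Black ticks give the same percent for the sum of 9 Leydig markers. Igfbp2 stands at 38.0% in spermatogonium-like cells, where the markers are at 1.77%, and all 4 genes lie left of the 11.1% tick in Sertoli-like cells.

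Compared over all cells, 6 of the 7 genes were at least 2-fold higher in somatic-like than in germ-cell-like cells, where 25.7% of 18421 genes were so and 38.7% were at least 2-fold lower. The median log2 ratio was 4.33 over the 7 genes and -0.49 over all genes tested. Igf1 averaged 108 CPM in somatic-like and 2.12 CPM in germ-cell-like cells (50.9-fold, 39.9 to 65.8). The ratio was 35.9 for Igfbp6, 32.3 for Igfbp7, 20.2 for Igfbp4 and 3.99 for Igfbp3. Igfbp2 had 326 CPM in somatic-like and 130.2 CPM in germ-cell-like cells, a ratio of 2.50 (2.40 to 2.61), which came to 1.39 when each cell was thinned to 1000 UMIs and to 1.44 when each cell had the same weight, so its place past the 2-fold line depended on the weight given to deep cells. Igfbp5 had 1.13 CPM in somatic-like and 1.06 CPM in germ-cell-like cells, a ratio of 1.07 (0.558 to 1.96).

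The rest of the axis had further sources. Of 45 other IGF axis genes with enough UMIs, 25 were at least 2-fold higher in somatic-like cells and 5 at least 2-fold lower, with a median log2 ratio of 1.41. Over all genes, 25.7% were higher and 38.7% lower. Among ligands and receptors 3 of 6 were higher and 1 was lower. Igf2, the fetal growth factor of the pair, reached 35.04 CPM in stroma-like cells. Igf1r was highest in Leydig-like cells at 471 CPM, then 260 CPM in stroma-like cells (ratio 1.81), and its steps from stroma-like through Sertoli-like and spermatogonium-like to pericyte-like cells had intervals that included 1. Insr, the insulin receptor gene, was highest in endothelial-like cells at 198 CPM, with 74.1 CPM in myoid-like cells. Igf2r, whose product clears IGF2, was lower in pooled somatic-like cells (17.8 CPM) than in germ-cell-like cells (29.99 CPM). Its highest classes were still somatic-like, pericyte-like cells at 60.2 CPM from 14 UMIs and Sertoli-like cells at 39.6 CPM. Igfals, the partner of the circulating IGF1 complex, had 2 UMIs in somatic-like and 40 in germ-cell-like cells.

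The proteases that free IGF1 had sources of their own. Of 6 protease and inhibitor genes with enough UMIs, 5 were at least 2-fold higher in somatic-like cells and 0 lower (25.7% and 38.7% of all genes). Pappa stood at 130.3 CPM in Sertoli-like cells and 9.28 CPM in stroma-like cells, the next class, a ratio of 14.1. Stc2, which codes for an inhibitor of PAPP-A, had 49.7 CPM in Leydig-like and 46.4 CPM in stroma-like cells. Stc1, the related inhibitor gene, had 19 UMIs, all in somatic-like cells, and Pappa2 had 6 UMIs in all. Adamts1 was highest in pericyte-like cells at 172 CPM.

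Genes whose proteins share the amino-terminal fold of the binding proteins were mostly tubule-wall and stromal genes, with 7 of 9 at least 2-fold higher in somatic-like cells and 1 lower, beside 25.7% and 38.7% of all genes. Ccn2 and Ccn1, which code for matricellular proteins, were highest in myoid-like cells at 1152 and 287 CPM. Htra3, a secreted serine protease gene, was highest in stroma-like cells at 271 CPM. Kazald1 was 1.7-fold higher in somatic-like cells, under the 2-fold line. Igfbpl1 was the gene that was lower in them, with 8.24 CPM in spermatogonium-like cells from 102 UMIs, while early prophase-like cells had 2 UMIs and pachytene-like cells 2 UMIs.

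Growth hormone drives Igf1 in liver, where its receptor signals through JAK2 and STAT5. Of 6 genes of this pathway, 4 were at least 2-fold higher in somatic-like cells and 0 lower, where 25.7% of all genes were higher and 38.7% lower. Ghr, the receptor gene, was highest in endothelial-like cells at 68.0 CPM, and of the 2 main Igf1 sources stroma-like cells had 50.5 CPM and macrophage-like cells 1.44 CPM. Socs2, a feedback inhibitor, was highest in endothelial-like cells too, at 142 CPM. Cish, another inhibitor of the pathway, was highest in Sertoli-like cells at 26.9 CPM. Below the insulin and IGF1 receptors, 6 of 18 genes were at least 2-fold higher in somatic-like cells and 3 lower, against 25.7% higher and 38.7% lower over all genes, so the share that was higher lay near that of all genes. The adaptor gene Irs2 was highest in pericyte-like cells at 94.6 CPM, and the transcription factor gene Foxo3 in Sertoli-like cells at 151 CPM.

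Pairs of the 7 genes ran together to very different degrees over the 20 clusters of at least 50 cells. These correlations of log2(CPM + 1) are descriptions, since the clusters share 1 library and its free RNA. Pearson's r was 0.71 between Igfbp6 and Igfbp7, 0.63 between Igf1 and Igfbp6 and 0.59 between Igfbp4 and Igfbp7, and -0.39 between Igf1 and Igfbp2. Of the binding protein genes, Igfbp6 was the one most like Igf1. In cells thinned to 1000 UMIs, 139 of 141 Igf1-positive stroma-like cells (98.6%) and 64 of 73 such myoid-like cells (87.7%) held a UMI of at least 1 of the 6 binding proteins, close to the 97.7% of all stroma-like and 89.7% of all myoid-like cells. Of 131 Igf1-positive macrophage-like cells, 30 (22.9%) did, close to the 22.2% of all macrophage-like cells.

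Among 16192 other genes, the 3 most like each member were taken by r over the same clusters. Igf1 ran closest to Olfml3 (r = 0.87), with B3gnt8 and Cyp27a1 after it, Igfbp6 to the small proteoglycan gene Dcn (0.962) and to Osr2 and the collagen gene Col3a1, and Igfbp7 to C1qtnf1 (0.978), Sparcl1 and Id3. Igfbp4 ran closest to Selenop (0.89), Igfbp5 to Ebf2 (0.909) and Igfbp3 to Dysf (0.86), with the endothelin gene Edn1 also among its 3. Igfbp2 had the lowest best match, Vmp1 (0.811), followed by the chaperonin gene Hspd1 and by Lss, an enzyme of sterol synthesis.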

How the data were processed

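Mouse testis cells of 4 libraries were labelled by genotype and postnatal day. For the Znhit1_KO library of day 35, the deposited values are UMI counts, whole numbers that are not normalized, and the submitters' processing notes name Cell Ranger 7.1.0, STAR and the build mm10. No barcode had fewer than 500 UMIs, and the cell calling is not described in the labels. Of the remaining 3 libraries, barcodes and features alone were read.

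A minimum of 500 genes and 1000 UMIs and a mitochondrial limit of 10% were passed by 8121 of 15306 barcodes. The UMI minimum removed 3592 and the mitochondrial limit 4152, with overlap. Scrublet in scanpy 1.11.5 called 265 doublets (3.26%), which were removed. Counts were scaled and log transformed per cell, and 3000 variable genes, 30 principal components, 15 neighbours and Leiden resolution 1 (leidenalg 0.10.2) gave 22 clusters. This step left out 1882 genes: those of the sex chromosomes and mitochondria and the IGF lists. A cluster took the name of its highest marker score if that was at least 1, led the next by 0.25 (not asked between consecutive germ stages) and rested on 3 markers at 2-fold or more. Clusters with a median UMI count below that of all cells divided by 3 stayed unnamed. The scoring was chosen with the clusters already in view, and erythroid markers were left out of naming at that point, since haemoglobin RNA (up to 1005 CPM summed in a cluster) led a cluster with spermatogonium markers. Names rest on rebuilt clusters. Free RNA was not subtracted.

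Summed counts of a class became CPM with Poisson intervals (exact), ratios with exact conditional binomial intervals and shares of cells with Clopper-Pearson intervals, all at 95% and covering counting error only. In ratios, 3 counts stood in for 0. Classes needed 50 cells and pairs of classes 20 UMIs. With 1 library, nothing was tested. The interval step was tested on simulated counts. All members were named, and other axis genes by a rule: 12 fixed names and, per list, the largest ratio of highest over next class (2 genes) and the highest CPM. A gene that this rule names is not reported here. The members and lists were chosen with earlier results of these data known. Positions come from a GENCODE annotation of mm10 and promoter windows from RefSeq. Tried as alternatives were looser minimums (200 genes, 500 UMIs), a 20% mitochondrial limit, doublets kept, resolution 2, 2000 variable genes, equal weight per cell, thinning to 1000 UMIs and naming of the shallow clusters.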

Additional observations from a re-analysis of the deposited data

How the results depend on the processing

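Each member had the same highest class in all 8 alternatives. The count of members whose highest class was at least 2-fold above the next was 3 in the values reported. It was 6 with a 20% mitochondrial limit, 5 with doublets kept, 5 at Leiden resolution 2 and 2 to 3 in the others. Over all settings Igf1 ran from 1.32 to 2.28, Igfbp4 from 1.37 to 2.11 and Igfbp6 from 1.93 to 2.29, and Igfbp7 was at 2.07 with the 20% limit. After thinning, Igfbp3 had a ratio of 3.8 but 10 UMIs in its highest class, under the minimum of 20. The count of members at least 2-fold higher in somatic-like cells was 6, or 5 after thinning, and that of other axis genes 25 to 28. Igfbp2 was not among the somatic-like members with equal weight per cell (1.44) or after thinning (1.39). Igfbp5, with 68 UMIs in the cells used, ran from 0.602 to 3.27, and with equal weight per cell it was among them at 2.38. The causes were not tested. Scrublet called 0 doublets with the minimum of 200 genes and 500 UMIs, so the 265 doublets of the reported values were removed there. With 1 library, no replicate could be left out. No paired analysis was possible because the result comes from no test and each group holds 1 library. At this depth, 3 counts in place of 0 came to 9.28 CPM in endothelial-like cells and 12.9 CPM in pericyte-like cells. These were the 2 smallest classes used.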

Other observations

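The highest Igfbp5 level of any cluster lay in 9 cells that took no name. Cluster 22, with Rmst, Ecrg4, Bmpr1b and C3 and the endothelial gene Kdr among its leading genes, held 16 of the 68 Igfbp5 UMIs, in 66.7% of its cells and at 336 CPM (192 to 546). The same 9 cells had 714 CPM of Igfbp4 (495 to 998), 189 CPM of Igfbp2 (86.4 to 359) and 0 UMIs of Igf1 and Igfbp3. Their pericyte markers were all at 0, and 5 of 8 endothelial markers and 5 of 8 peritubular myoid markers were at 0. The cluster was chosen after its values were seen, and 9 cells of 1 library allow no more than these values.

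The largest unnamed cluster, of 649 cells with a median of 1254 UMIs, had 287 CPM of Igfbp7, 131 CPM of Igfbp2, 125 CPM of Igfbp6, 45.7 CPM of Igfbp4, 25.2 CPM of Igfbp3 and 22.4 CPM of Igf1. Its leading genes included the Sertoli genes Rhox8, Cst9, Cst12 and Defb36.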
